A study of Mus musculus with 20 samples.

Results

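The aminoacyl-tRNA synthetases are the enzymes that join each amino acid to its transfer RNA (tRNA), and 39 genes of this family were followed in mouse hearts. They were chosen by name from the count table: protein-coding genes whose symbol is 1 capital letter followed by ars, ars1 or ars2, plus Eprs, Farsa, Farsb, Aimp1 and Aimp2. Of the 55335 genes in the table, 14878 passed a filter on low counts, and all 39 chosen genes were among them. They comprise 20 genes of cytosolic enzymes, 17 genes of mitochondrial enzymes and the 2 scaffold genes Aimp1 and Aimp2. Hearts came from C57BL/6N mice aged 3 to 5 months on an NIH-31 diet. OGFOD1-knockout (KO) and wild-type (WT) animals had carried an osmotic minipump for 2 weeks. Pumps held isoproterenol dissolved in PBS containing sodium ascorbate, and the vehicle pumps held that solvent only. The 4 groups were KO isoproterenol, KO vehicle, WT isoproterenol and WT vehicle, with 5 libraries of total RNA in each. OGFOD1 is an oxygenase that modifies a proline of Rps23, a protein of the small ribosomal subunit, and isoproterenol is a beta-adrenergic agonist used to induce cardiac hypertrophy. The part of Ogfod1 that was deleted, the cells in which it was lost and the number of founder lines are not given in the sources used here.

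A synthetase activates its amino acid with ATP and transfers it to the matching tRNA, which the elongation factor then carries to the ribosome. Mitochondria translate their own few messages, most of them for subunits of the respiratory chain, with a separate set of nuclear-encoded synthetases that are imported into the organelle. In the cytosol several synthetases sit in a multisynthetase complex held together by the scaffold proteins AIMP1, AIMP2 and AIMP3. The heart depends on mitochondrial respiration for contraction, and defects of mitochondrial synthetases are a known cause of human cardiomyopathy and encephalopathy. Many cytosolic synthetase genes are also known targets of ATF4, a transcription factor of the integrated stress response.

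Total counts ran from 14609808 to 43671055 per library, of which 5916852 to 17121499 lay outside the mitochondrial genome. Whether the 5 libraries of a group came from 5 mice is not stated, so p-values measure the spread between libraries. Ogfod1 separated the genotypes in all 20 libraries, with 2.39 to 4.13 CPM (counts scaled to library size) in KO and 16.9 to 21.8 CPM in WT. The members took 0.167% to 0.192% of counts outside the mitochondrial genome in 19 libraries and 0.286% in WT vehicle replicate 2. The excess of that library lay in Lars2. Over all genes, its chi-square per gene against the other libraries of its group was 59.25 to 67.93. Those 4 differed from each other by 4.43 to 11.05. KO isoproterenol replicate 5 stood apart as well. Its chi-square per gene against the other libraries of its group was 20.0 to 37.5, where those 4 differed from each other by 4.22 to 9.51. Its summed markers were 1570 CPM for smooth muscle and pericytes (651 to 692 CPM in the other 4), 959 CPM for fibroblasts (547 to 623 CPM), 642 CPM for erythroid cells (308 to 406 CPM) and 17835 CPM for cardiomyocytes (21790 to 23726 CPM). The fewest counts of any member in any library were 23.

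Per kilobase of merged exon, the median cytosolic enzyme stood above the median mitochondrial enzyme in all 20 libraries. Kars, lysyl-tRNA synthetase, and Gars, glycyl-tRNA synthetase, were the highest cytosolic members, with medians over 20 libraries of 8.20 and 8.03 CPM per kb. Both genes are known to supply the cytosolic and the mitochondrial enzyme from 1 locus. Nars, the asparaginyl enzyme, was the third at 6.96 CPM per kb. The lowest cytosolic members were Cars (cysteinyl) at 1.41, Farsa (alpha subunit of the phenylalanyl enzyme) at 1.6 and Yars (tyrosyl) at 1.73 CPM per kb. Farsb, the beta subunit that pairs with Farsa in the protein, had 5.06 CPM per kb. This order depends on the merged exon length. Before division by it, Eprs (18102 bases) had group means of 86.6 to 98.5 CPM, and Kars (4464 bases) of 32.6 to 40.3 CPM.

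Among the mitochondrial enzymes Iars2 (isoleucyl) led with a median of 6.42 CPM per kb, ahead of Fars2 (phenylalanyl) at 4.58 and Rars2 (arginyl) at 3.09. The lowest were Mars2 (methionyl) at 0.650, Pars2 (prolyl) at 0.652 and Ears2 (glutamyl) at 0.733 CPM per kb. Before division by length, Mars2 (11294 bases of merged exon) had group means of 7.08 to 7.65 CPM, and Pars2 (3094 bases) of 1.89 to 2.09 CPM. The scaffold genes differed, with 5.46 CPM per kb for Aimp2 and 1.85 for Aimp1. Neighbours in the order overlapped in their ranges: Kars spanned 6.34 to 9.39 and Gars 7.13 to 10.0 CPM per kb. Iars2 (5.86 to 6.85) and Fars2 (3.98 to 5.17 CPM per kb) did not overlap. Of the exon length of Iars2, 22.9% overlaps Rab3gap2, and of that of Aimp2, 29.4% overlaps Eif2ak1, both on the opposite strand. The strand setting of the counting is not given, and whether such reads entered these levels was not tested.

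**Figure D1:**
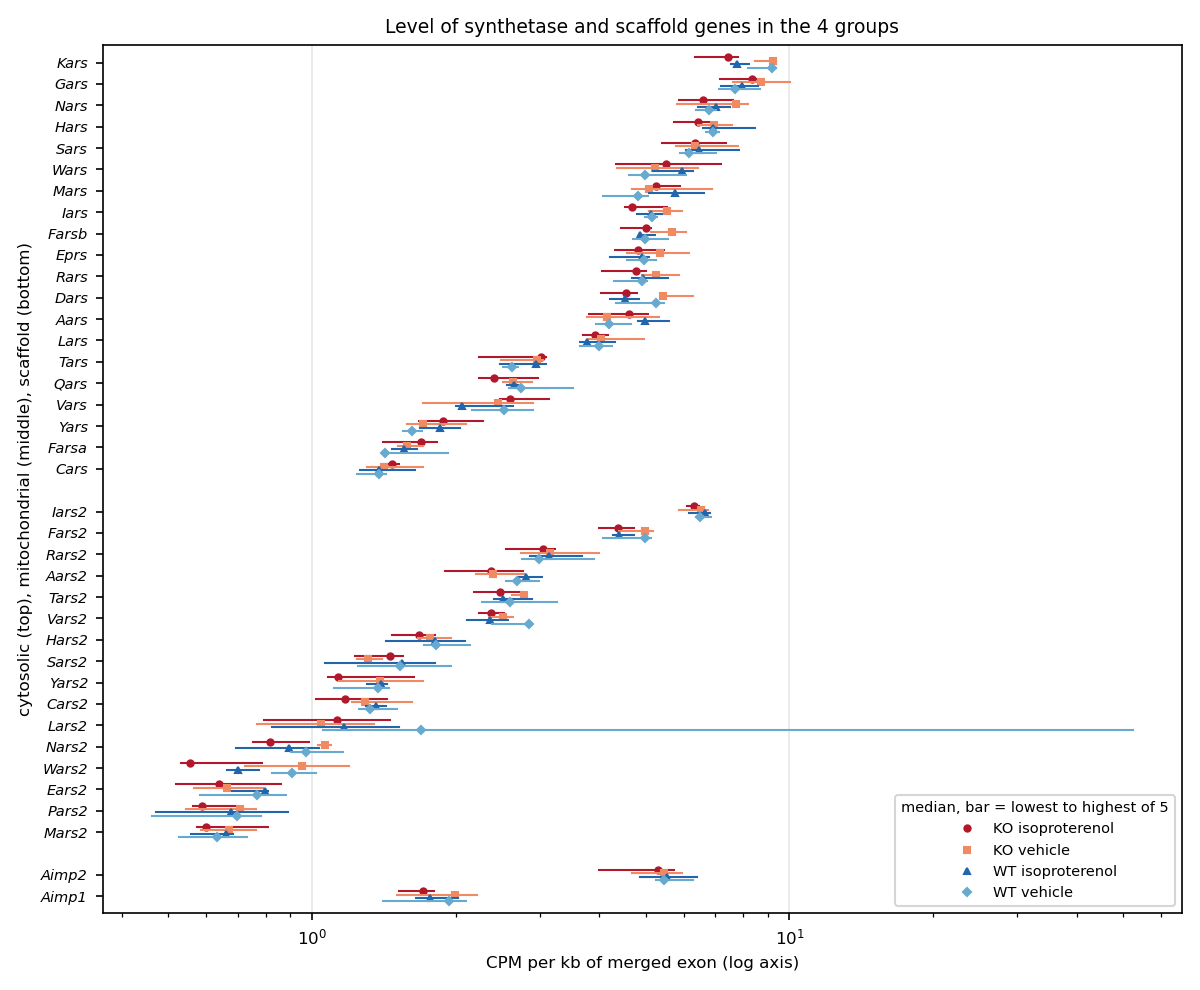
Level of each member described here in CPM per kb of merged exon (log axis), with the cytosolic enzymes at the top, the mitochondrial enzymes in the middle and the scaffold genes at the bottom. Symbols are group medians and bars run from the lowest to the highest of 5 libraries; the WT vehicle bar of Lars2 reaches 52.4 CPM per kb, and no other member has a bar of that length.

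Members differed in how far libraries of 1 group spread. Without WT vehicle replicate 2 the pooled SD within groups, in log2 CPM, ran from 0.0764 (Kars) to 0.235 (Wars, tryptophanyl) over the cytosolic genes, with a median of 0.128. Over the mitochondrial genes it ran from 0.0625 (Iars2) to 0.353 (Lars2), with a median of 0.152. The enzyme whose group means lay farthest apart in the 19 libraries was Wars2, the mitochondrial tryptophanyl enzyme, with a range of 0.59 in log2 CPM between KO vehicle and KO isoproterenol.

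Lars2, mitochondrial leucyl-tRNA synthetase (ENSMUSG00000035202, GRCm38 chromosome 9, 123366927 to 123462666, plus strand), was set by 1 library. Its counts came to 8316, or 581 CPM, in WT vehicle replicate 2, and to 8.50 to 19.1 CPM in the other 19 libraries. Lars2 had 8.78 to 16.1 CPM in KO isoproterenol, 8.50 to 15.0 CPM in KO vehicle, 9.16 to 16.8 CPM in WT isoproterenol, and 11.7, 13.6, 18.7 and 19.1 CPM in the other 4 WT vehicle libraries. That library alone was high, and without it the 4 groups overlapped. The log2 fold change of isoproterenol in WT was −3.30 with all libraries (SE 0.967, edgeR adjusted p = 0.0436) and −0.28 without the library (SE 0.227, adjusted p = 0.540). The summed level of the 17 mitochondrial enzymes was 767 CPM in WT vehicle replicate 2 and 189 to 226 CPM elsewhere. With Lars2 left out of the sum, the same library had 186 CPM against 176 to 214 CPM elsewhere.

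Gm42418, a non-coding RNA locus with ribosomal RNA-like sequence, moved with Lars2. It measured 9505 CPM in WT vehicle replicate 2 and 82.1 to 198 CPM in the other libraries. Lars2 had 6.11 counts per 100 counts of Gm42418 in that library and 6.93 to 11.3 in the others. The relation was also present among the 19 other libraries, where Gm42418 varied over a narrow range. In an edgeR fit of those 19 with a mean per group, a relation examined after the values had been seen, the slope of log2 Lars2 on log2 Gm42418 was 1.01 (SE 0.143, adjusted p = 0.00202). Of 15062 genes tested, 1 had an adjusted p under 0.05 (0.00664%), and that gene was Lars2. Without each of the 19 libraries in turn the slope lay between 0.955 and 1.11, with a highest adjusted p of 0.0167. The next member by p was Nars, with a slope of 0.27 (SE 0.0976, adjusted p = 1.00). Another ribosomal RNA-like gene, Gm26917, had 724 CPM in WT vehicle replicate 2, inside the range of 659 to 839 CPM of the other WT vehicle libraries, and AY036118 was at 0 in all libraries. The part of ribosomal RNA-like sequence in the Lars2 counts was not tested.

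**Figure D2:**
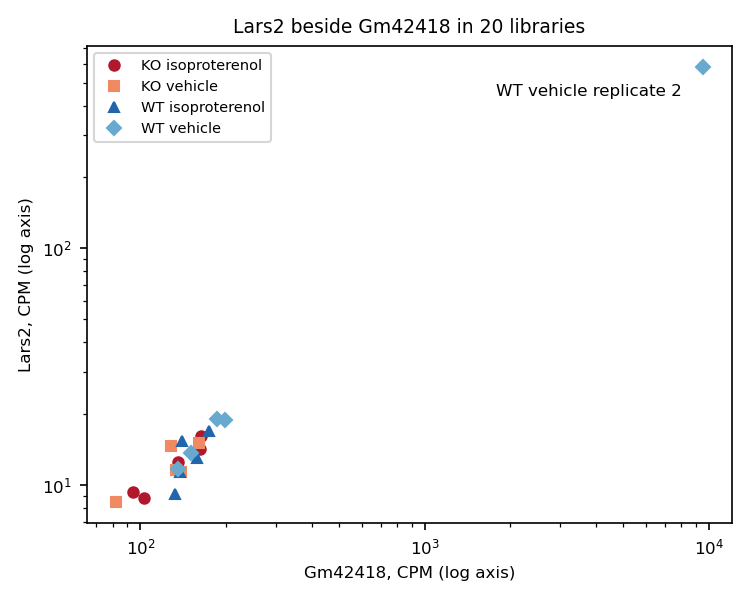
Lars2 against Gm42418, both in CPM on log axes, 1 point per library, with shape and colour by group. WT vehicle replicate 2 lies at 581 CPM of Lars2 and 9505 CPM of Gm42418, and the other 19 libraries lie between 8.50 and 19.1 CPM of Lars2.

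In KO hearts isoproterenol lowered 4 of the 39 members: the cytosolic Kars and Dars and the mitochondrial Wars2 and Nars2. Over all genes 4.29% were called lower and 9.03% in either direction. No member was called higher. The same 4 were called when WT vehicle replicate 2 was left out, when 9.57% of all genes were. Without KO isoproterenol replicate 5, 3 of the 4 were called: Kars, Dars and Wars2. The share of all genes called without that library is not given here. A drop in such bulk values can come from fewer cells of a type or from less RNA per cell, and these cannot be told apart.

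Kars (ENSMUSG00000031948, chromosome 8, 111993443 to 112011323, minus strand) had 28.3, 33.1, 33.3, 33.6 and 34.9 CPM in KO isoproterenol, against 37.9, 38.0, 41.2, 41.4 and 41.9 CPM in KO vehicle. The groups did not overlap, and the lowest value was that of KO isoproterenol replicate 5, the library that stood apart in its markers. Kars averaged 32.6 ± 2.53 CPM in KO isoproterenol and 40.1 ± 1.97 CPM in KO vehicle (SD, n = 5 each), which edgeR fitted as −0.30 on the log2 scale (SE 0.0620, adjusted p = 0.00219). Without KO isoproterenol replicate 5 the log2 fold change was −0.24 (adjusted p = 0.00966), and without WT vehicle replicate 2 as well it was −0.24 (adjusted p = 0.00495).

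Dars, the aspartyl enzyme (ENSMUSG00000026356, chromosome 1, 128363707 to 128417368, minus strand), had 17.5, 19.2, 19.8, 20.6 and 20.9 CPM in KO isoproterenol, against 23.6, 23.7, 23.7, 24.2 and 27.3 CPM in KO vehicle. Again no library of the first group reached the second. The log2 fold change was −0.32 (SE 0.0705, adjusted p = 0.00379), and −0.31 (adjusted p = 0.00957) without KO isoproterenol replicate 5. Kars and Dars are both subunits of the multisynthetase complex.

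Wars2 (ENSMUSG00000004233, chromosome 3, 99141068 to 99239186, plus strand) charges the mitochondrial tRNA for tryptophan. It had 3.16, 3.29, 3.30, 4.43 and 4.67 CPM in KO isoproterenol, against 4.30, 5.58, 5.66, 5.79 and 7.10 CPM in KO vehicle. The groups overlapped through 1 low KO vehicle library. The log2 fold change of −0.57 was the most negative among the members (SE 0.131, adjusted p = 0.00479), at 52 to 220 counts per KO library. Without KO isoproterenol replicate 5 it was −0.66 (adjusted p = 0.00168).

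Nars2, the mitochondrial asparaginyl enzyme (ENSMUSG00000018995, chromosome 7, 96951505 to 97064758, plus strand), had 5.24, 5.40, 5.68, 5.95 and 6.87 CPM in KO isoproterenol, against 7.16, 7.21, 7.43, 7.47 and 7.65 CPM in KO vehicle. The groups did not overlap. The log2 fold change was −0.34 (SE 0.106, adjusted p = 0.0383), and the call was lost in 11 of 29 alternative settings, with adjusted p up to 0.0937. It did not pass without KO isoproterenol replicate 1, 2, 3 or 5 or without any 1 of the 5 KO vehicle libraries, when the log2 fold change lay between −0.35 and −0.31. Of its exon length 4.08% overlaps the processed transcript C230038L03Rik on the opposite strand. Farsb, with 11.6 to 13.5 CPM in KO isoproterenol and 13.5 to 15.9 CPM in KO vehicle, came to a near tie of its closest libraries, and had an adjusted p of 0.0821 (log2 fold change −0.20, SE 0.0730). In all, 4 members (Kars, Dars, Nars2 and Farsb) had KO isoproterenol libraries wholly below those of KO vehicle, against 4.31% of all genes tested.

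The cytosolic isoleucyl enzyme Iars (log2 fold change −0.18, SE 0.0633, adjusted p = 0.0684) came next among the cytosolic enzymes and did not pass. By direction alone, 14 of 20 cytosolic and 15 of 17 mitochondrial fold changes were negative, with medians of −0.10 and −0.12. Over all genes tested 7066 of 14878 were negative, with a median of 0.01. All 11 genes of the multisynthetase complex, a list that includes the AIMP3 gene Eef1e1, had negative fold changes with a median of −0.18. Over 29 alternative settings that median lay between −0.21 and −0.13, and 10 or 11 of the 11 were negative. The lean was not particular to the complex. Of the lists described below, 10 of 11 mitochondrial translation factors and 8 of 9 genes of cytosolic tRNA delivery were negative. So were 9 of 12 other charging genes and 34 of 45 tRNA processing and modification genes. The ATF4 and integrated stress response list had 10 of 29 negative. Without KO isoproterenol replicate 5 the medians were −0.09 for the cytosolic enzymes, −0.11 for the mitochondrial enzymes and −0.16 for the complex. Synthetases fall into class I and class II by the fold of the catalytic domain. Among 18 class I genes 1 was called lower in KO (Wars2) with a median of −0.08, and among 18 class II genes 3 were (Kars, Dars and Nars2) with a median of −0.13. The scaffold genes Aimp1 (−0.20, SE 0.103, adjusted p = 0.239) and Aimp2 (−0.13, SE 0.107, adjusted p = 0.497) did not pass. The genes share libraries, so their fold changes are not independent of each other.

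**Figure D3:**
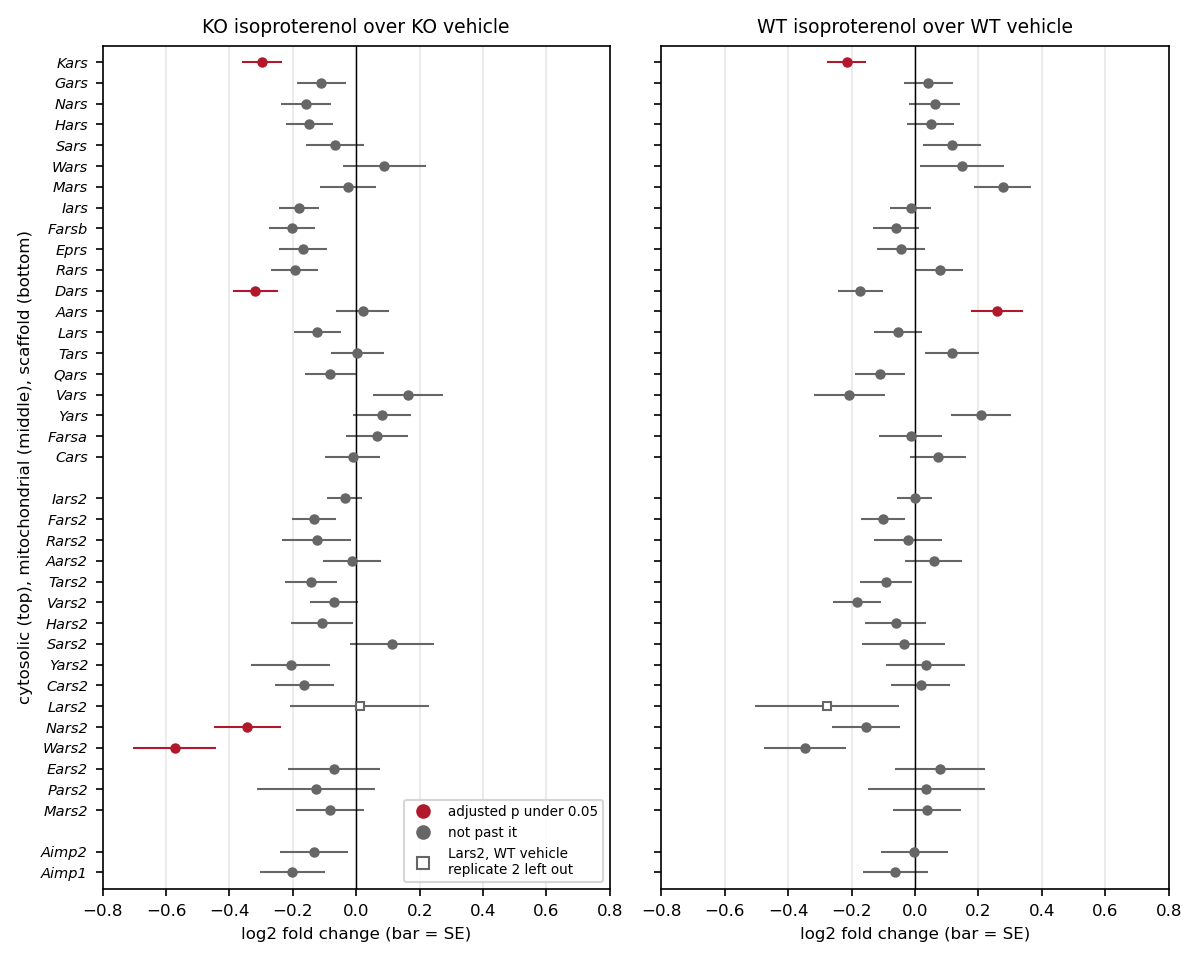
Log2 fold change of isoproterenol over vehicle with its SE for each member described here, in KO (left) and in WT (right), from edgeR with all 20 libraries except for Lars2 (open square), whose values come from the 19 libraries without WT vehicle replicate 2. Members past an adjusted p of 0.05 are red: Kars, Dars, Nars2 and Wars2 in KO, and Kars and Aars in WT.

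In WT hearts Aars was higher with isoproterenol and Kars lower, and Lars2 passed through the single library above. These 3 of 39 calls stand beside 8.76% of all genes in either direction, 4.64% higher and 4.12% lower. The count is near the share of all genes and is not read as particular to the members. Without WT vehicle replicate 2 only Kars passed (log2 fold change −0.25, SE 0.0619, adjusted p = 0.0128), when 7% of all genes did.

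Kars had 33.6, 33.9, 34.6, 35.1 and 36.7 CPM in WT isoproterenol, against 36.5, 40.3, 41.0, 41.6 and 41.9 CPM in WT vehicle. The groups met at 1 library, WT vehicle replicate 2, which had the lowest Kars value of its group. With all libraries the log2 fold change was −0.22 (SE 0.0619, adjusted p = 0.0265). The call was lost in 7 of 29 alternative settings, with adjusted p up to 0.0761. They included WT isoproterenol replicate 3 or 4, or WT vehicle replicate 1, 3, 4 or 5, left out singly, when the log2 fold change lay between −0.22 and −0.20.

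Aars, the alanyl enzyme (ENSMUSG00000031960, chromosome 8, 111033144 to 111057664, plus strand), had 44.7, 44.7, 46.3, 46.8 and 52.0 CPM in WT isoproterenol, against 36.5, 38.6, 39.0, 39.0 and 43.2 CPM in WT vehicle. Each isoproterenol library lay above each vehicle library. The log2 fold change was 0.26 (SE 0.0826, adjusted p = 0.0474), and it did not pass in 18 of 29 alternative settings, with adjusted p up to 0.148. Without WT isoproterenol replicate 4 the log2 fold change was 0.22 (adjusted p = 0.148) and without WT vehicle replicate 4 it was 0.23 (adjusted p = 0.121). Leaving out singly WT isoproterenol replicate 1, 2, 3 or 5, WT vehicle replicate 2, 3 or 5, KO isoproterenol replicate 1, 2 or 4 or KO vehicle replicate 3 gave adjusted p of 0.0532 to 0.0845. On the same strand, 14.3% of the exon length of Aars overlaps Exosc6, and Exosc6 had 0 counts in all 20 libraries.

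Mars, the methionyl enzyme (ENSMUSG00000040354, chromosome 10, 127296221 to 127311786, minus strand), had an adjusted p just above the threshold. It had 17.4, 18.7, 19.7, 20.5 and 22.6 CPM in WT isoproterenol and 13.9, 16.2, 16.5, 17.2 and 17.3 CPM in WT vehicle. The groups did not overlap, though the highest vehicle and lowest isoproterenol libraries nearly met. The log2 fold change was 0.28 (SE 0.0896, adjusted p = 0.0505), and 68 bases of its exons overlap Ddit3 on the opposite strand. Aars and Mars were the 2 members that lay wholly above vehicle, where 4.29% of all genes did.

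Wars2 had 3.95, 4.12, 4.15, 4.22 and 4.62 CPM in WT isoproterenol, against 4.89, 4.91, 5.41, 5.62 and 6.07 CPM in WT vehicle. It was the 1 member wholly below vehicle (3.75% of all genes were) but did not pass (log2 fold change −0.35, SE 0.130, adjusted p = 0.0930). Dars had 18.4 to 21.1 CPM in WT isoproterenol and 18.9 to 23.8 CPM in WT vehicle, with overlap (log2 fold change −0.17, SE 0.0709, adjusted p = 0.132, and −0.22 without WT vehicle replicate 2, adjusted p = 0.0531). Nars2 had 4.84 to 7.20 CPM in WT isoproterenol and 6.29 to 8.09 CPM in WT vehicle (−0.15, SE 0.106, adjusted p = 0.414). Vars2, the mitochondrial valyl enzyme, stood at −0.18 (SE 0.0752, adjusted p = 0.130). Median fold changes were 0.05 over the cytosolic and −0.04 over the mitochondrial enzymes, against 0.00 over all genes. Positive values were found for 11 of 20 cytosolic enzymes and for 7551 of 14878 genes tested. Without WT vehicle replicate 2 the medians were 0.03 and −0.07.

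**Figure D4:**
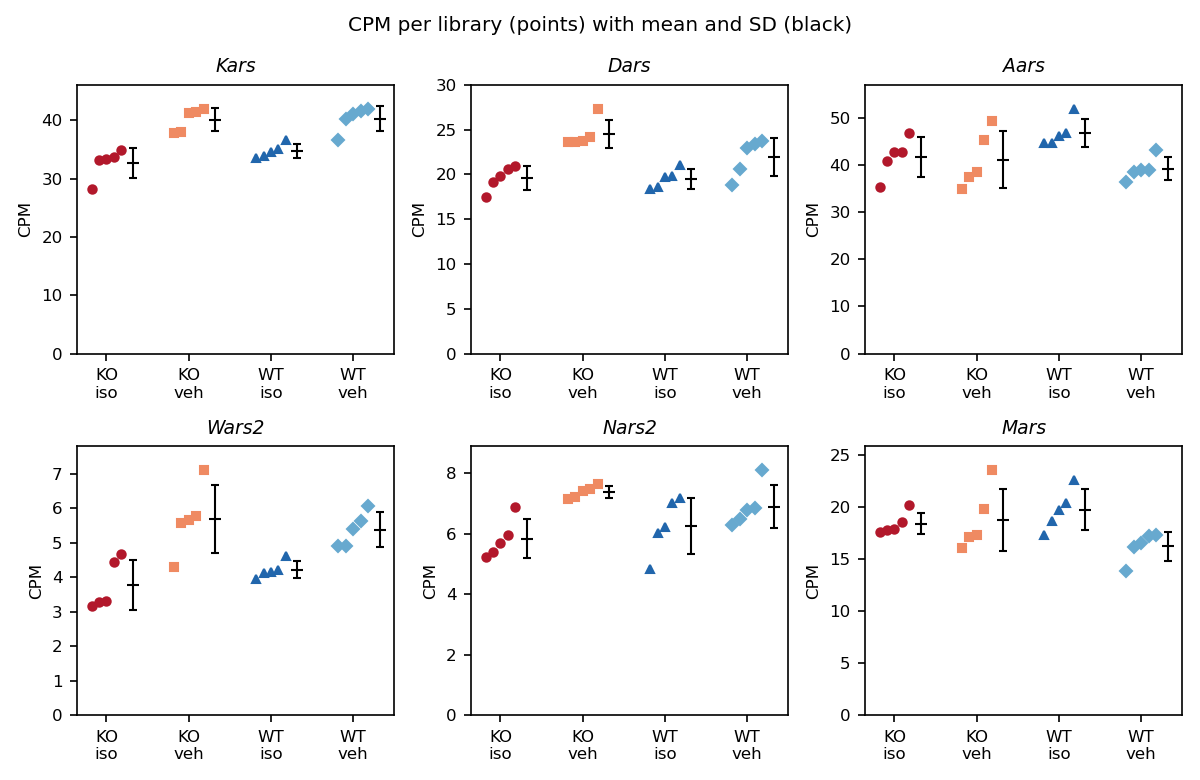
CPM of 6 members in each library (points) with the group mean and SD (black), for KO isoproterenol (KO iso), KO vehicle (KO veh), WT isoproterenol (WT iso) and WT vehicle (WT veh). Kars, Dars and Nars2 have no overlap between the KO groups, and Aars, Mars and Wars2 have none between the WT groups.

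Averaged over genotypes, which uses all 20 libraries, isoproterenol lowered Kars (log2 fold change −0.26, SE 0.0438, adjusted p = 9.19e-05), Wars2 (−0.46, SE 0.0920, adjusted p = 5.81e-04), Dars (−0.25, SE 0.050, adjusted p = 7.11e-04) and Nars2 (−0.25, SE 0.0752, adjusted p = 0.0190). None of the 39 was called higher by edgeR, where 18.8% of all genes were called in either direction and 9.07% lower. A count of 4 lower in 39 is near the share of all genes and is not read as particular to the members. All 28 alternative settings kept these 4 calls. With 2 surrogate variables 8 members were called, 1 of them higher and 7 lower, and limma-voom called 1 higher and 5 lower. The shares of all genes called in those settings are not given here, so these counts are not read as particular to the members. Without WT vehicle replicate 2, Fars2 (−0.14, adjusted p = 0.0284) and Vars2 (−0.15, adjusted p = 0.0489) also passed. In that fit 18.3% of all genes were called in either direction and 8.9% were called lower. With all libraries Fars2 had −0.12 (SE 0.0486, adjusted p = 0.0921), and the cytosolic Farsb had −0.13 (SE 0.0518, adjusted p = 0.0770).

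The balance between the classes was described in each library as the median log2 level per kb of the cytosolic enzymes minus that of the mitochondrial ones. It averaged 1.81 ± 0.159 in KO isoproterenol, 1.84 ± 0.134 in KO vehicle, 1.78 ± 0.0542 in WT isoproterenol and 1.62 ± 0.122 in WT vehicle (SD, n = 5 each). The WT groups touched, at 1.72 to 1.84 with isoproterenol and 1.46 to 1.74 with vehicle. Without WT vehicle replicate 2 the vehicle mean was 1.61, and with Lars2 left out of the mitochondrial class the WT means were 1.70 with isoproterenol and 1.64 with vehicle. Without Lars2 the WT libraries ran from 1.59 to 1.81 with isoproterenol and from 1.54 to 1.68 with vehicle.

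A mitochondrial enzyme can also be set against its cytosolic counterpart by raw counts in the same library, which needs no scaling. These pairs were picked after their values were seen. Wars2 had 0.191 to 0.249 counts per count of Wars in WT isoproterenol (median 0.195), against 0.268 to 0.322 in WT vehicle (median 0.309). In KO the ratio was 0.133 to 0.297 with isoproterenol (median 0.173) and 0.238 to 0.457 with vehicle (median 0.257). The WT groups were apart and the KO groups overlapped. The ratio of Nars2 to Nars had medians of 0.188 in KO isoproterenol, 0.220 in KO vehicle, 0.197 in WT isoproterenol and 0.224 in WT vehicle, with overlap in both genotypes.

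Cell type markers moved with isoproterenol as well. The summed level of 6 cardiomyocyte markers was 17835 to 23726 CPM in KO isoproterenol and 23143 to 25375 CPM in KO vehicle, and 21564 to 23824 CPM in WT isoproterenol and 24920 to 30725 CPM in WT vehicle. The low end in KO isoproterenol was replicate 5, and the other 4 had 21790 to 23726 CPM. The high end in WT vehicle was replicate 2, and the other 4 had 24920 to 27824 CPM. All 6 were tested, and of them none passed in KO and Myh6, the alpha myosin heavy chain, was lower in WT (log2 fold change −0.50, adjusted p = 3.62e-04). The summed level of 6 fibroblast markers was 547 to 959 CPM in KO isoproterenol and 452 to 529 CPM in KO vehicle, and 487 to 574 CPM in WT isoproterenol and 414 to 461 CPM in WT vehicle. The high end in KO isoproterenol was again replicate 5, and the other 4 had 547 to 623 CPM. The same 3 of them, Pi16, Lum and Dpt, were higher in each genotype. The 6 macrophage markers summed to 121 to 150 CPM in KO isoproterenol and 103 to 112 CPM in KO vehicle, and to 106 to 174 CPM in WT isoproterenol and 88.5 to 108 CPM in WT vehicle, with Mrc1 and Csf1r higher in KO and Mrc1 and Lyz2 higher in WT. Of 5 endothelial markers Kdr was lower in KO, and Pecam1 and Cdh5 were higher in WT. The 5 smooth muscle and pericyte markers summed to 651 to 1570 CPM in KO isoproterenol (651 to 692 CPM without replicate 5) and 579 to 676 CPM in KO vehicle, and to 639 to 729 CPM in WT isoproterenol and 528 to 621 CPM in WT vehicle. All 5 had positive fold changes in KO, with a median of 0.57 and none past the threshold, and Rgs5 was higher in WT (0.43, adjusted p = 3.37e-05). The 5 erythroid markers summed to 308 to 642 CPM in KO isoproterenol (308 to 406 CPM without replicate 5) and 249 to 369 CPM in KO vehicle, and to 222 to 343 CPM in WT isoproterenol and 287 to 462 CPM in WT vehicle. None of the erythroid and adipocyte markers passed. Their part in the synthetase values was not tested.

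A motif of the integrated stress response was present in several cytosolic promoters. RefSeq promoter sequences on GRCm38.p6, from 250 bases before to 50 bases after the start of each gene, were at hand for 29 of the 39 members, 13 cytosolic, 14 mitochondrial and 2 scaffold genes. Cars, Hars, Lars, Nars, Rars, Vars, Wars, Hars2 and Pars2 were among those with no entry. The C/EBP-ATF response element TGATGNAA, the composite site at which ATF4 is known to bind with a C/EBP partner, was searched on both strands. It was present in Aars, Gars, Iars, Tars (threonyl) and Yars, 5 of 13 cytosolic promoters (38.5%), in 0 of 14 mitochondrial and in 0 of 2 scaffold promoters. It occurred in 3.97% of all 32851 promoters of this length, and in 4.51% of 27025 genes, the unit in which members were counted. None of the sites found overlapped a site of the other motifs searched. The sites shown, 1 for each of the 5, are printed because the members that hold them are those compared with the ATF4 list next. Each line gives 30 bases on the strand of the gene, with the motif or its reverse complement in capitals.
Aars (chr8:111033840-111033869, plus strand, motif after the start): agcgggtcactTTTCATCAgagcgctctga
Gars (chr6:55037960-55037989, plus strand, motif 30 bases before the start): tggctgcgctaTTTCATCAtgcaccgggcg
Tars (chr15:11399655-11399684, minus strand, motif 15 bases before the start): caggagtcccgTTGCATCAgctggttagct
Iars (chr13:49682126-49682155, plus strand, motif after the start): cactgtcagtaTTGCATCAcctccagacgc
Yars (chr4:129189895-129189924, plus strand, motif after the start): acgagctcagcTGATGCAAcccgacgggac
Of the sites shown, those of Tars and Iars read TTGCATCA and those of Aars and Gars TTTCATCA. The Yars site, TGATGCAA, is the reverse complement of TTGCATCA and so the same element on the other strand. A match describes the letters only and is no evidence of binding.

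Other motifs divided the classes less. The motif of nuclear respiratory factor NRF1 was in Farsb, Kars and Tars and in the mitochondrial Iars2 and Mars2 (4.60% of promoters, 5.19% of genes). The ETS motif CCGGAAG was in 5 of 13 cytosolic promoters, including Kars and Mars, and in 4 of 14 mitochondrial ones (8.86% of promoters, 9.93% of genes). The YY1 motif AAGATGGCG was in Farsa and in the mitochondrial Aars2, Wars2 and Yars2 (1.40% of promoters, 1.64% of genes). The cyclic AMP response element TGACGTCA and the estrogen-related receptor motif CAAGGTCA were in none of the 29. Of the 4 members called lower in KO, Kars held the NRF1 and ETS motifs, Wars2 the YY1 motif, and Dars and Nars2 none of the 6.

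The 5 enzymes with the C/EBP-ATF element were read 1 by 1 with isoproterenol, and a part of ATF4 in their values was not tested. In KO their log2 fold changes were 0.02 for Aars, 0.08 for Yars, 0.00 for Tars, −0.11 for Gars and −0.18 for Iars, and none passed. In WT, Aars passed as above and Yars had a value of 0.21 (SE 0.0932, adjusted p = 0.172). Tars had 0.12 (SE 0.0852, adjusted p = 0.446), Gars 0.04 (SE 0.0771, adjusted p = 0.801) and Iars −0.01 (SE 0.0634, adjusted p = 0.924) in WT.

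Atf4 itself measured 39.2 to 55.3 CPM in KO isoproterenol and 34.9 to 50.8 CPM in KO vehicle (log2 fold change 0.17, adjusted p = 0.512). It rose in WT, with 42.3 to 69.4 CPM in WT isoproterenol and 31.9 to 43.2 CPM in WT vehicle (log2 fold change 0.52, SE 0.139, adjusted p = 0.0245). The WT groups overlapped by 1 library on each side. Of 29 tested genes of an ATF4 and integrated stress response list, Ppp1r15a, a phosphatase subunit that reverses eIF2 phosphorylation, was higher in KO (0.34, adjusted p = 0.0364) and Vldlr, a lipoprotein receptor, lower in KO (−0.26, adjusted p = 0.00708). In WT, Atf4 was higher and Vldlr lower (−0.22, adjusted p = 0.0262). These were all the calls of the list, 1 higher and 1 lower in each genotype. Over all genes 9.03% were called in KO and 8.76% in WT. Asns, asparagine synthetase and a well-known ATF4 target, had −0.29 in KO (adjusted p = 0.730) and 0.67 in WT (adjusted p = 0.408). The median of the list was 0.05 in KO and 0.15 in WT, against 0.01 and 0.00 over all genes.

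Genes acting next to the synthetases were compared in the same fit, where 9.03% of all genes were called in KO (4.29% lower) and 8.76% in WT (4.64% higher and 4.12% lower). Of 11 mitochondrial translation factors, 5 fell in KO with isoproterenol: the elongation factors Gfm1 (−0.26, adjusted p = 0.00873) and Tufm (−0.23, adjusted p = 0.0348), the ribosome recycling factors Gfm2 (−0.21, adjusted p = 0.0181) and Mrrf (−0.25, adjusted p = 0.0394), and the release factor Mtrf1l (−0.39, adjusted p = 0.0476). In WT 1 of the 11 passed, Gfm2 (−0.18, adjusted p = 0.0444). The medians of this list were −0.19 in KO and −0.09 in WT.

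Of 9 genes that deliver charged tRNA to the cytosolic ribosome, Eef1d (−0.25, adjusted p = 0.00707), Eef1a2 (−0.30, adjusted p = 0.0118) and Eef1g (−0.25, adjusted p = 0.0322) fell in KO and Eef1a1 rose (0.29, adjusted p = 0.0269). Eef1a1 and Eef1a2 encode alternative forms of the factor that carries tRNA, and Eef1d and Eef1g encode subunits of its exchange factor. In WT, Eef1a2 (−0.40, adjusted p = 7.22e-04) and Eef1d (−0.19, adjusted p = 0.0461) fell. Of 12 other charging genes, Gatb, a subunit of the amidotransferase that makes mitochondrial glutaminyl-tRNA in place of a synthetase, fell in KO (−0.37, adjusted p = 0.00667). Ptcd1, a mitochondrial RNA-binding protein, rose in WT (0.52, adjusted p = 0.00209). Of 45 tRNA processing and modification genes, the methyltransferase Trmt5 was higher in KO (0.52, adjusted p = 2.38e-04) and in WT (0.62, adjusted p = 2.08e-05). Hsd17b10, a subunit of mitochondrial RNase P, was lower in KO (−0.34, adjusted p = 0.00384) and in WT (−0.29, adjusted p = 0.0145). Rpp25, a subunit of nuclear RNase P, rose in WT (1.16, adjusted p = 2.83e-04).

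Loss of Ogfod1 left no member past the threshold. Under vehicle 0 of 39 passed (0.128% of all genes did) and under isoproterenol 0 of 39 (0.181% of all genes). No member had KO libraries wholly above those of WT (0.995% of all genes under vehicle and 1.01% under isoproterenol) or wholly below them (1.03% and 1.13%). Averaged over treatments 0 of 39 passed (0.847% of all genes). Unadjusted p under 0.05 was reached by 5, 4 and 2 members, where 8.31%, 13% and 12.8% of all genes reached it. DESeq2 and limma-voom called 0 members in each of these comparisons too.

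Under vehicle, KO over WT, the members with the smallest p were Mars (0.20, SE 0.0893, adjusted p = 0.541), Gars (0.17, SE 0.0765, adjusted p = 0.554) and Dars (0.15, SE 0.0699, adjusted p = 0.569) among the cytosolic enzymes. Lars2, again through 1 library, led the mitochondrial ones (−3.40, adjusted p = 0.261, and −0.38 without WT vehicle replicate 2). Aars2, mitochondrial alanyl (−0.17, SE 0.0892, adjusted p = 0.633), and Sars2, mitochondrial seryl (−0.24, SE 0.131, adjusted p = 0.645), followed. Positive fold changes were found for 17 of 20 cytosolic enzymes, with a median of 0.11, and for 10 of 17 mitochondrial ones, with a median of 0.01. Over all genes tested 7559 of 14878 were positive, with a median of 0.00. In 29 alternative settings, WT vehicle replicate 2 left out among them, 15 to 18 of the 20 cytosolic values were positive.

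Under isoproterenol, KO over WT, Vars, the valyl enzyme, was the cytosolic member with the smallest p (0.31, SE 0.112, adjusted p = 0.239), ahead of Hars, histidyl (−0.19, SE 0.0746, adjusted p = 0.282), and Aars (−0.17, SE 0.0825, adjusted p = 0.383). Among the mitochondrial enzymes Aars2 (−0.24, SE 0.0902, adjusted p = 0.258), Cars2 (−0.18, SE 0.0935, adjusted p = 0.416) and Ears2 (−0.21, SE 0.145, adjusted p = 0.565) led. All 17 mitochondrial fold changes were negative, from −0.24 to −0.02 with a median of −0.09. Over all genes tested 7287 of 14878 were negative, with a median of 0.00. The 29 alternative settings include KO isoproterenol replicate 5 left out. In them 13 to 17 of the 17 were negative, the fewest with 2 surrogate variables. Their median lay between −0.14 and −0.03, and the fold change of Aars2 between −0.30 and −0.16 without passing. The values with KO isoproterenol replicate 5 alone left out are not given here. In the main fit the cytosolic median was −0.02, with 12 of 20 negative. Aars2 averaged 11.5 ± 1.63 CPM in KO isoproterenol, 11.5 ± 1.07 CPM in KO vehicle, 13.6 ± 0.678 CPM in WT isoproterenol and 13.0 ± 0.890 CPM in WT vehicle (SD, n = 5 each). Averaged over treatments it had the smallest p of any member (−0.21, SE 0.0634, adjusted p = 0.123), followed among the mitochondrial enzymes by Lars2 (−1.75, adjusted p = 0.282, and −0.24 without WT vehicle replicate 2) and Sars2 (−0.17, SE 0.0929, adjusted p = 0.462). The cytosolic enzymes with the smallest p in that comparison were Gars (0.10, SE 0.0543, adjusted p = 0.472), Hars (−0.09, SE 0.0524, adjusted p = 0.500) and Vars (0.13, SE 0.0784, adjusted p = 0.524).

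**Figure D5:**
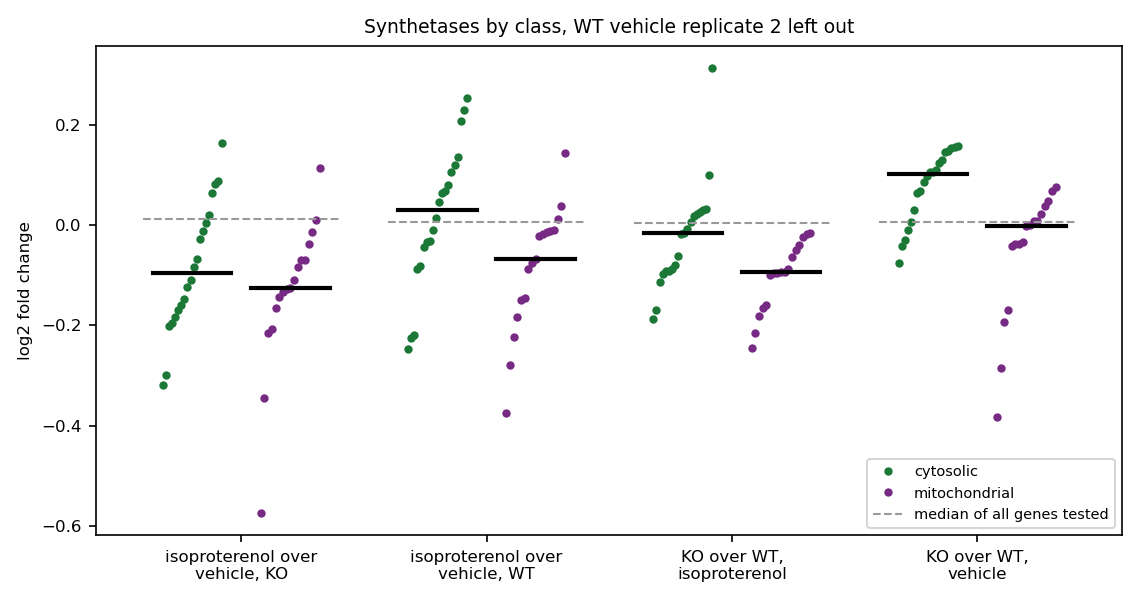
Log2 fold changes of the 20 cytosolic and 17 mitochondrial enzymes in 4 comparisons, from the 19 libraries without WT vehicle replicate 2, with the median of each class (black line) and of all genes tested (dashed). All 17 mitochondrial points lie below 0 for KO over WT under isoproterenol, and 16 of 20 cytosolic points lie above 0 for KO over WT under vehicle.

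The isoproterenol response was also tested for a difference between genotypes. Adjusted p under 0.05 was reached by 0 of 39 members and by 0% of all genes, with 4 members at an unadjusted p under 0.05 (7.68% of all genes). DESeq2 and limma-voom called 0 members as well. The smallest p among cytosolic members were those of Rars, arginyl (difference −0.27, SE 0.104, adjusted p = 0.518), Mars (−0.30, SE 0.126, adjusted p = 0.581) and Vars (0.37, SE 0.157, adjusted p = 0.585). Among mitochondrial members they were those of Lars2 (3.31, SE 1.36, adjusted p = 0.592, and 0.29 without WT vehicle replicate 2), Cars2 (−0.18, SE 0.131, adjusted p = 0.741) and Yars2, tyrosyl (−0.24, SE 0.176, adjusted p = 0.745). For the members called in KO and not in WT, the difference was −0.15 for Dars (SE 0.10, adjusted p = 0.734), −0.23 for Wars2 (SE 0.184, adjusted p = 0.779) and −0.19 for Nars2 (SE 0.150, adjusted p = 0.771). Their responses are therefore not shown to differ between genotypes.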

How the data were processed

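RNA of 20 mouse heart libraries was sequenced after total RNA extraction, and the deposited table holds raw counts per Ensembl gene. Per the submitters' processing notes, HISAT2 2.1.0, featureCounts 1.6.3, R 3.6.0 and limma 3.40.6 were used with GRCm38; the strand setting and the treatment of multi-mapping reads are not given in the sources used here. ID versions were stripped and IDs paired with GENCODE vM21 symbols, which matched 55154 of 55335 IDs. All 20 columns were assigned to samples by their names, with 0 left over.

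The counts were fitted in R 4.3.3 with edgeR 4.0.16 (filterByExpr, TMM scaling, quasi-likelihood test, a mean per group over all 20 libraries, 16 residual degrees of freedom). P-values were adjusted by Benjamini and Hochberg over 14878 genes, with a threshold of 0.05. The biological coefficient of variation was 0.119. CPM used TMM-scaled library sizes, and levels between genes were divided by merged exon length. The procedure was also run on simulated counts with a single spread for all genes and no library that stood apart. The simulated group changes were larger than most fold changes called here, so that run does not measure how often such changes are found. Alternatives were RLE and upper quartile scaling, DESeq2 1.42.0, limma-voom 3.58.1 with quality weights, no filter, removal of mitochondrially encoded and ribosomal RNA-like genes, only the groups compared, 2 surrogate variables from sva 3.50.0, and each library left out. The slope on Gm42418, the counts of members whose groups do not overlap and the count ratios were chosen after seeing the data. Full values are given for Lars2, for members past the threshold, and for the 3 cytosolic and 3 mitochondrial members with the smallest p in a comparison. Of the other lists, at most 4 genes past the threshold are named per comparison, except that all 5 mitochondrial translation factors are. For 1 member and 1 promoter site, individual values or letters are not reported here. Figures were drawn with matplotlib 3.10.9. The members and all lists were chosen with earlier results of these data known. No 2 libraries of a group were copies, since the lowest chi-square per gene over 40 pairs was 3.82.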

Additional observations from a re-analysis of the deposited data

Results flagged for a closer look

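In each group of 5 libraries, a member's highest or lowest value was set against the others by its gap to the nearest value over the whole range, with Dixon's critical value of 0.71. Of 156 groups checked (the 4 groups of each of 38 members and of the level gap between classes), 11 (7.05%) had a library that stood apart, where chance gives about 1 in 20. All values are log2 CPM. In KO isoproterenol, Kars was low in replicate 5 (4.82, nearest 5.05), Sars2 was low in replicate 5 (2.03, nearest 2.27) and Mars2 was high in replicate 1 (3.19, nearest 2.80). In KO vehicle, Dars was high in replicate 3 (4.77, nearest 4.59) and Tars2 was low in replicate 1 (4.19, nearest 4.27). In WT isoproterenol, Farsb was high in replicate 5 (3.78, nearest 3.69), Vars was high in replicate 2 (3.88, nearest 3.59) and Mars2 was low in replicate 1 (2.65, nearest 2.87). In WT vehicle, replicate 2 was high for Lars2 (9.18, nearest 4.25) and low for Aimp1 (2.98, nearest 3.42) and Yars2 (1.80, nearest 2.11).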

How the results depend on the processing

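No paired analysis was possible because the replicate numbers follow accession order and pair no libraries. In WT, DESeq2 called 1 member for isoproterenol, and leaving out each library in turn gave 0 to 4. The same ranges were 3 to 4 for isoproterenol in KO and 4 to 6 for isoproterenol averaged over genotypes, where 2 surrogate variables gave 8 (1 higher and 7 lower). In the main fit 8.76% of all genes were called in WT, 9.03% in KO and 18.8% averaged over genotypes. Apart from the fits without WT vehicle replicate 2, the shares in other settings are not given here. The comparisons of KO with WT and the difference between responses gave 0 in every setting. The level gap between classes in WT isoproterenol was 1.70 with Lars2 left out. Lars2 changed sign with 2 surrogate variables in WT (0.29) and averaged over genotypes (0.0062). In KO its main edgeR value was near 0 against its SE (0.011, SE 0.980, adjusted p = 0.997). There it was negative with upper quartile scaling (−0.0073), limma-voom (−0.039) and 2 surrogate variables (−0.28). For KO over WT under isoproterenol the main value was also small against its SE (−0.09, SE 0.983). The difference between responses of Lars2 was −0.57 with 2 surrogate variables. Leaving out each library in turn, Lars2 lay between −0.106 and 0.110 for isoproterenol in KO and between −0.215 and 0.0049 for KO over WT under isoproterenol. The cause was not tested. Kars, Dars and Wars2 in KO passed in all 29 settings, while Mars in WT passed in 6 and Iars in KO in 4. The fewest counts behind a Wars2 value were 52.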
